A study of Mus musculus with 2 samples.

Results

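The 10 genes described here are the Tsc22 family (Tsc22d1, Tsc22d2, Tsc22d3 and Tsc22d4) and 6 genes known as targets of glucocorticoid hormones or as their neighbours in stress signalling (Fkbp5, Klf9, Sgk1, Ddit4, Zbtb16 and Irf2bp2). They were chosen by gene symbol, and the reads of a gene were summed over all its transcript models. All 10 had reads in both libraries, out of 15410 annotated genes with a read in either. The list was drawn up with values of these libraries known, among them the low ratio of Irf2bp2, so levels and library ratios are a description. The comparison of start sites in Tsc22d1 and Tsc22d3 was named with the list. Whole heart was taken from male mice aged 18 to 20 months. They were B6CASTF1/J, hybrids between the inbred strains C57BL/6J and CAST/EiJ. Both libraries were made from 2 µg of RNA by long-read sequencing, and each read was counted as 1 transcript or a piece of it. Whether several reads came from the same molecule was not tested. There was 1 group and no treatment, so no contrast of hormone with vehicle exists, and whether these genes answered a hormone here was not measured. The libraries are labelled biological replicates 2 and 1 but carry the same donor identifier, so every test compares only these libraries. P-values set their difference against counting error alone, and no spread between animals or between libraries was estimated. The differences may be technical.

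Replicate 2 held 1003999 mouse reads and replicate 1 held 688861. Levels are CPM, reads per 1e6 mouse reads, and are not divided by length, because a long read is counted once whatever its length. A count of 0 allows up to 2.99 CPM in replicate 2 against 4.36 CPM in replicate 1. All intervals given are 95% intervals and cover counting error only. Cardiomyocyte markers summed to 36916 CPM in replicate 2 against 34942 CPM in replicate 1, and all 7 had reads. The 5 skeletal muscle markers had none in either library.

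Glucocorticoids bind the glucocorticoid receptor, which sits in the cytosol with HSP90 and its co-chaperones, moves to the nucleus and binds response elements near its targets. The Tsc22 family are leucine zipper proteins that pair with one another. Several of the genes have alternative promoters that give long and short proteins with a shared carboxy-terminal part. Tsc22d3 encodes GILZ, the glucocorticoid-induced leucine zipper, which holds back inflammatory transcription factors. In the heart the receptor is known to act in cardiomyocytes as well as in fibroblasts and immune cells.

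The 4 genes with the highest means stood above the other 6 in both libraries, with intervals that did not overlap. The cut between them was made after the values were seen. Tsc22d4 averaged 237 ± 28.2 CPM, Tsc22d3 186 ± 96.5 CPM, Tsc22d1 157 ± 9.65 CPM and Klf9 144 ± 44.6 CPM (SD, n = 2 for each mean). Irf2bp2 averaged 57.5 ± 46.0 CPM and Sgk1 45.7 ± 15.4 CPM (SD, n = 2). Below these lay Zbtb16 at 18.0 ± 15.6 CPM, Tsc22d2 at 17.2 ± 3.82 CPM, Ddit4 at 14.5 ± 2.14 CPM and Fkbp5 at 11.7 ± 3.93 CPM (SD, n = 2). In replicate 2 the lowest bound of the first 4 genes was 92.8 CPM and the highest bound of the other 6 was 48.5 CPM, and in replicate 1 these bounds were 135 CPM and 115 CPM. Within each set only part of the order held. Tsc22d4 stood clear of Tsc22d1 and Klf9 in both libraries, with intervals that did not overlap. Among the other 6, Sgk1 stood clear of Ddit4 and Fkbp5 in the same way, and Irf2bp2 of Zbtb16. Every other pair within a set had overlapping intervals in replicate 2, in replicate 1 or in both. In replicate 2 the intervals of Tsc22d1 (127 to 176 CPM), Tsc22d3 (97.3 to 141 CPM) and Klf9 (92.8 to 135 CPM) overlapped, and in replicate 1 those of Tsc22d4 (220 to 298 CPM) and Tsc22d3 (218 to 295 CPM) did. The family as a whole had 505 CPM (507 reads) in replicate 2 against 690 CPM (475 reads) in replicate 1.

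**Figure D1:**
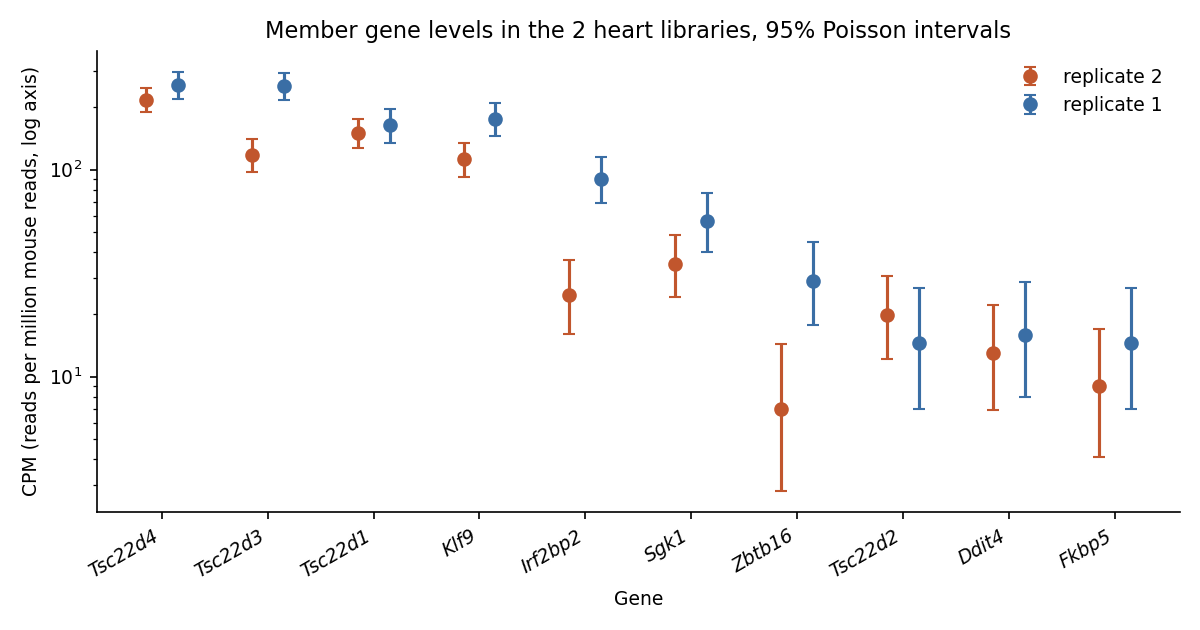
CPM of each gene (log axis) in replicate 2 (orange) and replicate 1 (blue), with 95% Poisson intervals. Tsc22d4, Tsc22d3, Tsc22d1 and Klf9 lie above the other 6 genes in both libraries.

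What the 4 family genes share at the sequence level is the end of the coding region, where the zipper is encoded. In the 4 transcripts below the last exon is preceded by a short exon of 49 bases (Tsc22d1 and Tsc22d4) or 52 bases (Tsc22d2 and Tsc22d3). The stretches show that short exon followed by the first 90 bases of the last exon, from the GENCODE M21 transcripts. They are shown because every full-length chain of Tsc22d3 described next, long or short, ends in these same exons. Capitals mark bases identical to Tsc22d1-201 in a pairwise alignment.
Tsc22d1-201: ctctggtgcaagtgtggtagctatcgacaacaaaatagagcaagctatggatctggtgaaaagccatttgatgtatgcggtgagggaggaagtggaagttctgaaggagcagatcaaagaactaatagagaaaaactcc
Tsc22d2-203: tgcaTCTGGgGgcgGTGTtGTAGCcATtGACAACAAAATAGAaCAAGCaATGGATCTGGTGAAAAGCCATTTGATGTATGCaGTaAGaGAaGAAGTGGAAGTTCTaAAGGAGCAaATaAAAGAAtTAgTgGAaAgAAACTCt
Tsc22d3-201: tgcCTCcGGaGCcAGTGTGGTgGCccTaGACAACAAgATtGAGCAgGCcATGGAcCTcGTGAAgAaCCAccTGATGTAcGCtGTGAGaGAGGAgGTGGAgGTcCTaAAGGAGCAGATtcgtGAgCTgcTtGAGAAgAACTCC
Tsc22d4-202: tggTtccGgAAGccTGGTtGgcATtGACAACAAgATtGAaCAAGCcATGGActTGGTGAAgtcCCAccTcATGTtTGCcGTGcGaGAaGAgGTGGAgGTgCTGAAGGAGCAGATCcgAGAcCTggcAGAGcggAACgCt
Of the 139 bases of the Tsc22d1 stretch, 116 (83.5%) in Tsc22d2, 106 (76.3%) in Tsc22d3 and 95 (68.3%) in Tsc22d4 had an identical partner. In mm10 the 2 pieces lie at chr14:76505249-76505297 and chr14:76506417-76506506 (plus strand) in Tsc22d1 and at chr3:58459331-58459382 and chr3:58460008-58460097 (plus strand) in Tsc22d2. They lie at chrX:140542105-140542156 and chrX:140541018-140541107 (minus strand) in Tsc22d3 and at chr5:137758684-137758732 and chr5:137759067-137759156 (plus strand) in Tsc22d4. No family gene matched a transcript of another family gene at 90% identity over 50% of the shorter one.

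Tsc22d3 was transcribed from starts 56017 to 57472 bases apart, and the balance between them differed between the libraries. The gene lies on the minus strand of chromosome X (mm10). Its short form, Tsc22d3-201, starts at 140543187, has 3 exons and 1974 nt, and codes for 137 amino acids (411 coding bases). It had 38 of 118 Tsc22d3 reads in replicate 2 against 108 of 175 reads in replicate 1. The annotated long form, Tsc22d3-203, starts 57472 bases further upstream, codes for 201 amino acids and had 3 reads in replicate 2 against 1 read in replicate 1. Replicate 2 is thus low in the short form, while the annotated long form is rare in both libraries.

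Most distal reads lay on 4 chains that the annotation lacks. Each has 4 exons, a first exon of its own, and then the 431-base exon at chrX:140598128-140598558 that in Tsc22d3-203 holds the start codon, with the first coding base at 140598441. The chains therefore contain the whole 603 coding bases annotated for the long form and differ from it only ahead of that exon and in their 3' ends. Their first exons end at 140598917 in the first chain (26 reads in replicate 2 against 19 in replicate 1) and at 140599400 in the second (13 reads in replicate 2 against 15 in replicate 1). In the third the first exon ends at 140598878 (11 reads in each library) and in the fourth at 140599313 (4 reads in replicate 2 against 3 in replicate 1). All 4 were listed in both libraries, with 5' ends that agreed within 4 bases. The 5' ends fell in 2 places, at 140599204 to 140599208 (37 reads in replicate 2 against 30 in replicate 1) and at 140599478 to 140599480 (17 reads in replicate 2 against 18 in replicate 1). Both places lie between 1179 and 1455 bases downstream of the annotated start of Tsc22d3-203. Listed ends are those of a model, not of each read. New models on the opposite strand of Tsc22d3 had 6 reads in replicate 2 against 4 in replicate 1, most of them over the shared exon, and whether the counting used strand is not stated.

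**Figure D2:**
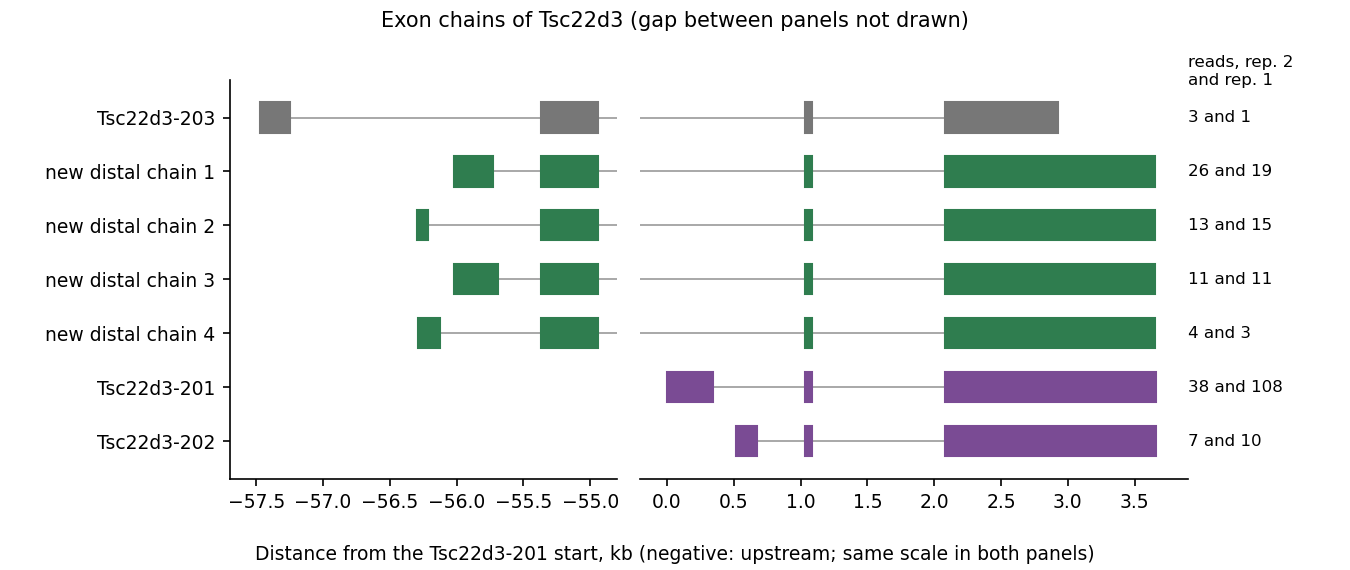
Exons (boxes) and introns (lines) of the Tsc22d3 chains, with distance from the Tsc22d3-201 start in kb on a common scale and the stretch between panels left out. The 4 unannotated chains (green) share their second exon with Tsc22d3-203 (grey) and their last exons with Tsc22d3-201 and Tsc22d3-202 (purple), and reads of replicate 2 and replicate 1 stand at the right.

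Besides annotated transcripts and new spliced models, the authors' classes hold incomplete models, whose exon chain is part of an annotated one, and genomic models, whose reads do not follow annotated splicing. Counted by start, over spliced models of the first 2 kinds, the Tsc22d3-201 start took 38 of 103 reads (36.9%, Clopper-Pearson interval 27.6 to 47.0%) in replicate 2 against 109 of 168 reads (64.9%, 57.2 to 72.1%) in replicate 1. The distal starts together took 57 reads (55.3%, 45.2 to 65.1%) in replicate 2 against 49 reads (29.2%, 22.4 to 36.7%) in replicate 1. The share intervals of the libraries did not overlap for either start. In levels, the Tsc22d3-201 start stood at 37.8 CPM in replicate 2 against 158 CPM in replicate 1, a log2 ratio of -2.06 (-2.64 to -1.52, no pseudocount). The distal starts stood at 56.8 CPM in replicate 2 against 71.1 CPM in replicate 1, a log2 ratio of -0.33 (-0.90 to 0.26), an interval that includes 0. The gap between the libraries in Tsc22d3 thus lay mainly at the short form's start. Tsc22d3-202, which is annotated without a coding region and starts inside the first intron of Tsc22d3-201, had 7 reads in replicate 2 against 10 reads in replicate 1.

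Fisher's exact test of the most used first splice donor, run over 3311 genes, called 2 genes (0.0604%, or 0.0898% of the 2226 genes with more than 1 donor). Tsc22d3 was one of them, with a difference of -28.0 percentage points and an adjusted p of 0.0250 (two-sided, Benjamini-Hochberg). The same test of the most read transcript called 29 of 4087 genes (0.71%, or 0.736% of the 3940 genes with more than 1 model), and among the 6 members tested it called Tsc22d3 alone, at -29.5 percentage points with an adjusted p of 0.00036. Shares within a gene do not depend on how the libraries are scaled, but they rest on the same reads as the gene's library ratio. The starts of Tsc22d3 were also singled out with results of these libraries known.

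**Figure D3:**
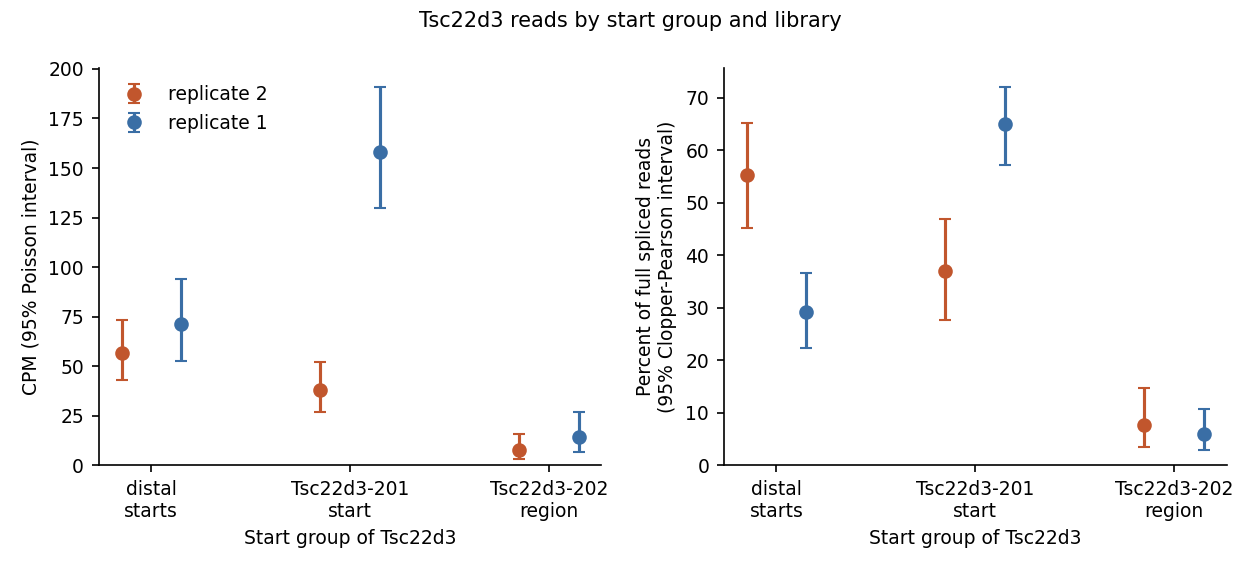
CPM with 95% Poisson intervals (left) and percent of full spliced reads with 95% Clopper-Pearson intervals (right) for the start groups of Tsc22d3, in replicate 2 (orange) and replicate 1 (blue). The libraries are apart at the Tsc22d3-201 start and overlap in CPM at the distal starts.

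Tsc22d1, the founding gene of the family, first known as induced by TGF-beta, used 1 start almost alone in both libraries. Tsc22d1-201 starts at chr14 position 76504478 (plus strand), has 3 exons and 1762 nt and codes for 143 amino acids. It had 122 of 127 full spliced reads (96.1%, 91.1 to 98.7%) in replicate 2 against 96 of 99 (97.0%, 91.4 to 99.4%) in replicate 1. The long form Tsc22d1-202 codes for 1077 amino acids, starts 88891 bases upstream and is 4818 nt long. It had 1 read in each library, and the other annotated long form, Tsc22d1-204, had none. The donor test found a difference of -0.91 percentage points for the main start (Fisher's exact test over 3311 genes, adjusted p = 1). A single-exon model over the last exon held 24 reads in replicate 2 against 14 in replicate 1. The pair of genes thus differed among full spliced reads. Tsc22d3 had a substantial share of distal starts in both libraries and Tsc22d1 had 1 read of its long form in each. Tsc22d1-202 is also longer, at 4818 nt, than the unannotated distal chains of Tsc22d3, at 2133 to 2385 nt. Whether length affected these counts was not tested, and single-exon reads cannot be given to a start.

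Tsc22d4 (chr5:137745730-137768450, plus strand) had the highest mean of the 10 genes and the most models. Its main transcript, Tsc22d4-202, codes for 387 amino acids and had 108 reads in replicate 2 against 83 in replicate 1. An incomplete chain that starts ahead of the same coding exon had 31 reads in replicate 2 against 24 in replicate 1. A chain with an unannotated first donor at 137746687 on chromosome 5 had 13 reads in replicate 2 against 19 in replicate 1, and covers 1161 annotated coding bases, as Tsc22d4-202 does. Tsc22d4-205, a short coding transcript from an internal start, had 17 reads in replicate 2 against 12 in replicate 1. A single-exon model that begins with the last coding exon had 19 reads in replicate 2 against 16 in replicate 1. The Tsc22d4-202 first donor took 110 of 166 full spliced reads (66.3%) in replicate 2 against 86 of 131 (65.6%) in replicate 1, with an adjusted p of 1 in Fisher's exact test. Tsc22d2 was low, with 20 reads in replicate 2 against 10 in replicate 1. All of its full spliced reads, 19 in replicate 2 against 10 in replicate 1, used a single first donor. Tsc22d2-203, of 4659 nt, had 10 reads in replicate 2 against 6 in replicate 1, and Tsc22d2-201, which ends further downstream and is 9799 nt long, had 7 reads in replicate 2 against 4 in replicate 1.

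Sgk1 encodes the serum- and glucocorticoid-regulated kinase, which acts on ion channels and transporters. It had 35 reads in replicate 2 against 39 in replicate 1, and it too used a pair of starts, 776 bases apart on chromosome 10. Sgk1-202 had 14 reads in replicate 2 against 19 in replicate 1, and Sgk1-201 had 13 reads in replicate 2 against 16 in replicate 1. The first donor of Sgk1-202 took 15 of 30 full spliced reads (50%, 31.3 to 68.7%) in replicate 2 against 20 of 37 (54.1%, 36.9 to 70.5%) in replicate 1. The difference of -4.05 percentage points had an adjusted p of 1 in Fisher's exact test, and the intervals are wide at this depth. The 2 windows differ in sequence, and both are shown because the reads divide between them. They come from RefSeq (GRCm38.p6), plus strand, and run from 250 bases before to 50 bases after each start.
Sgk1-202 start, chr10:21993640-21993939: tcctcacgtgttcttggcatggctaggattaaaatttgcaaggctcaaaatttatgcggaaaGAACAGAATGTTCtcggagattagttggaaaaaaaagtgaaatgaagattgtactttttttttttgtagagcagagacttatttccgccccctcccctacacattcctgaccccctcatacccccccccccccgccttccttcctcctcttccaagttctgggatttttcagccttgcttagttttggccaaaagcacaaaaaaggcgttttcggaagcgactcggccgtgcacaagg
Sgk1-201 start, chr10:21994416-21994715: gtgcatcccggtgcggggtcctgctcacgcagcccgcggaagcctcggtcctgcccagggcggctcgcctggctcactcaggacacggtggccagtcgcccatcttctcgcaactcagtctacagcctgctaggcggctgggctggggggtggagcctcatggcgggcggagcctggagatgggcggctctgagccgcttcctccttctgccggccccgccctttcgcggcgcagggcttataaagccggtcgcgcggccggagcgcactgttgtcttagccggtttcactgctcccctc
Capitals mark the match to the core of the glucocorticoid response element (GNACA, then 3 bases of any kind, then TGTNC), which begins at position -188 from the start of Sgk1-202. The motif reads the same on both strands. It is in 156 of all 32851 promoter windows of 300 bases (0.475%). Among the members, 7 genes have windows in that table, 18 in all, and this is the only window of the 18 with a match. The starts of Tsc22d3-201 and of the unannotated Tsc22d3 chains, and those of Tsc22d2, Tsc22d4 and Zbtb16, were not searched. The 6 bases AGAACA were searched on both strands. The Sgk1-202 window has 3 matches to them, not all of which overlap the capitals, and those that do have 1 base outside. The 6 bases are in 5 of the 18 windows (27.8%) and in 19.0% of all windows. The Sgk1-202 window is 46.3% G and C and the Sgk1-201 window 69.7%. A match is a match of letters and no measure of binding.

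Klf9, Ddit4 and Fkbp5 had as their most read model a single-exon one near the 3' end. Klf9 (chr19:23141226-23168134), a zinc finger transcription factor, had 113 reads in replicate 2 against 121 in replicate 1. Of these, 103 reads in replicate 2 against 104 in replicate 1 were on a model of its last exon, 3452 nt long, and the full transcript Klf9-201 (4486 nt) had 9 reads in replicate 2 against 15 in replicate 1. The authors' models call that piece genomic in replicate 2 but incomplete in replicate 1, so the classes are pooled here. Ddit4 (chr10:59949669-59951834) encodes REDD1, an inhibitor of the growth kinase mTORC1. It had 13 reads in replicate 2 against 11 in replicate 1, of which a model of 360 nt at the 3' end had 11 reads in replicate 2 against 6 in replicate 1 and the full transcript Ddit4-201 had 2 reads in replicate 2 against 5 in replicate 1. Fkbp5 (chr17:28399094-28517527) encodes FKBP51, a co-chaperone that lowers the receptor's affinity for hormone. It had 9 reads in replicate 2 against 10 in replicate 1, of which a model of 130 nt at the 3' end had 4 reads in replicate 2 against 5 in replicate 1 and Fkbp5-201 had 2 reads in each library.

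Irf2bp2 (chr8:126588296-126593986), a transcriptional co-repressor, was mostly seen full length. Irf2bp2-201, of 5080 nt, had 18 of 25 reads (72.0%) in replicate 2 against 43 of 62 reads (69.4%) in replicate 1. A single-exon model at the 3' end had 3 reads in replicate 2 against 13 in replicate 1, and another that covers part of the coding region had 3 reads in replicate 2 against 6 in replicate 1. Gm26759, which overlaps it on the opposite strand, had 5 reads in replicate 2 against 4 in replicate 1. Zbtb16 encodes PLZF, a BTB zinc finger repressor, and its annotated transcript was almost absent. Zbtb16-201 had 1 read in replicate 2 against none in replicate 1. In replicate 2, 5 of 7 reads were on a model that begins at the annotated 3' end and runs into the gene, from 48654297 to 48655808 on chromosome 9. In replicate 1, 19 of 20 reads were on a model from 48651780 to 48654297, which shares only 1 base with the annotated gene and runs 2517 bases past its 3' end. The reads counted for Zbtb16 thus come from different stretches in the 2 libraries. New models on the opposite strand of Zbtb16 had 29 reads in replicate 2 against 25 in replicate 1.

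In the 6 members that had 20 reads or more in both libraries, incomplete and genomic models took a median of 19.9% of reads in replicate 2 against 19.2% in replicate 1. Over all 4087 genes at that depth it was 10.5% in replicate 2 against 9.21% in replicate 1. The members ranged from 12.7% to 92.0% in replicate 2 and lay between 4% and 86.0% in replicate 1, with Klf9 at the top and Tsc22d3 at the bottom in both. New spliced models took 46.6% of Tsc22d3 reads in replicate 2 against 27.4% in replicate 1, where the median over all genes was 3.57% in each library.

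**Figure D4:**
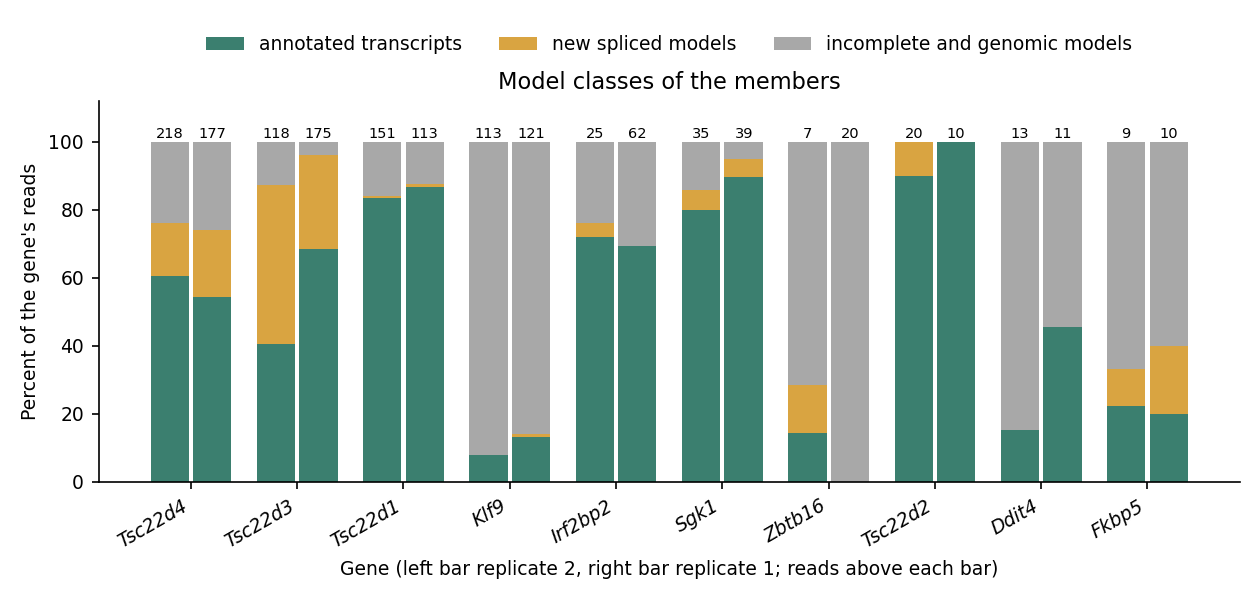
Share of each gene's reads, in percent, on annotated transcripts, new spliced models, and incomplete or genomic models, with replicate 2 as the left bar and replicate 1 as the right bar and the reads above. Klf9, Ddit4, Zbtb16 and Fkbp5 are mostly incomplete or genomic, and Tsc22d3 has the largest share of new spliced models in both libraries.

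Of the 10 genes, 9 stood lower in replicate 2 than in replicate 1, as did 4880 of all 8836 genes tested. The exact two-sided binomial test over 8836 genes, with Benjamini-Hochberg adjustment, called 297 genes (3.36%), of which 177 (2%) were lower and 120 (1.36%) higher in replicate 2. It called 4 members lower and none higher, but the list was chosen with this contrast known. Nothing is read from that count or from the 9 of 10. The called genes were Tsc22d3 at 118 CPM in replicate 2 against 254 CPM in replicate 1 (log2 ratio of CPM + 1, -1.11), Irf2bp2 at 24.9 CPM in replicate 2 against 90 CPM in replicate 1 (-1.81), Zbtb16 at 6.97 CPM in replicate 2 against 29.0 CPM in replicate 1 (-1.91) and Klf9 at 113 CPM in replicate 2 against 176 CPM in replicate 1 (-0.64). The CPM intervals of these 4 do not overlap between the libraries, which rests on the same counts as the test and adds nothing to it. How many of all genes share this was not counted. For Klf9 the adjusted binomial p was 0.0240, and it was 0.0629 with edgeR TMM library sizes and 0.0628 with DESeq2 size factors. With known models only the log2 ratio was -1.28 for Klf9, which was then not called (adjusted binomial p = 0.263), and -1.84 for Tsc22d3, which was. With either scaling the called genes were 57.5% or 57.0% higher, against 40.4% with mouse reads, and the median log2 ratio of all genes was 0.00, against -0.06. The Zbtb16 value rests on the different stretches described above.

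The other 6 members were not called. Tsc22d4 had 217 CPM in replicate 2 against 257 CPM in replicate 1, and Tsc22d1 had 150.4 CPM in replicate 2 against 164 CPM in replicate 1. Their log2 intervals were -0.54 to 0.05 for Tsc22d4 and -0.49 to 0.24 for Tsc22d1. Sgk1 had 34.9 CPM in replicate 2 against 56.6 CPM in replicate 1 (adjusted binomial p = 0.389). Tsc22d2, at 19.9 CPM in replicate 2 against 14.5 CPM in replicate 1, was the one gene on the other side. Ddit4 had 12.9 CPM in replicate 2 against 16.0 CPM in replicate 1, and Fkbp5 had 8.96 CPM in replicate 2 against 14.5 CPM in replicate 1. With so few reads the log2 intervals ran from -0.71 to 1.71 for Tsc22d2, from -1.58 to 1.00 for Ddit4 and from -2.17 to 0.76 for Fkbp5. Ratios inside these intervals are compatible with the counts, so the counts of these genes do not settle a direction. The median log2 ratio of the 10 was -0.64, against -0.06 over all genes tested.

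**Figure D5:**
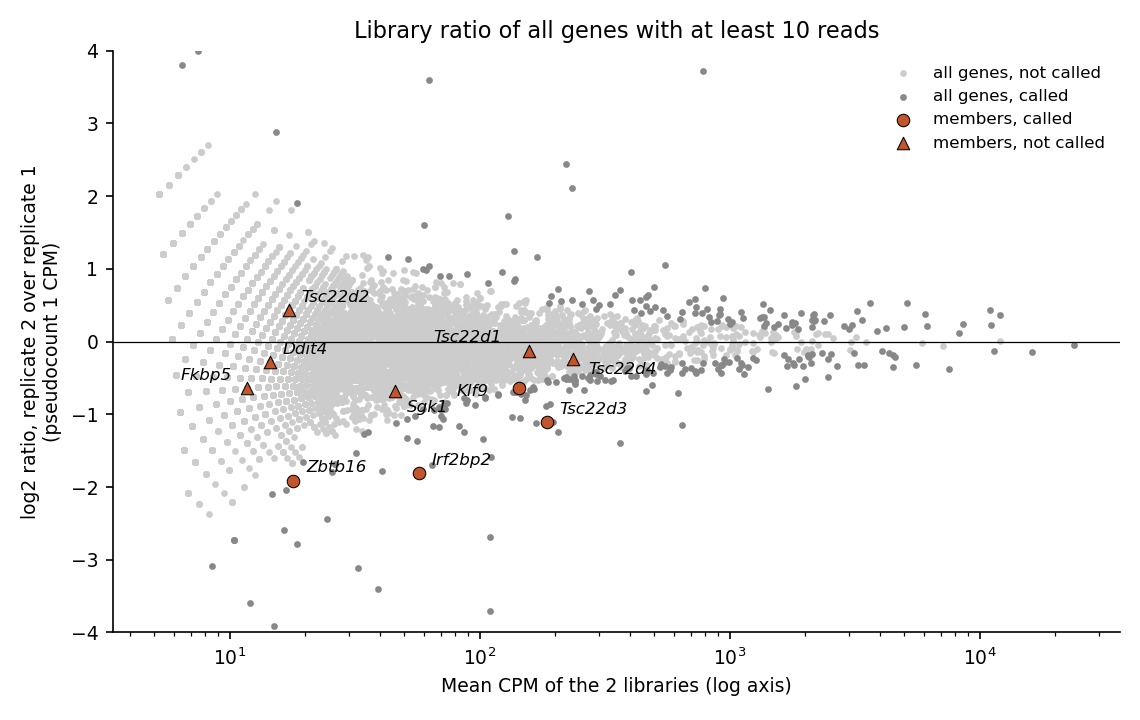
Log2 ratio of replicate 2 over replicate 1 against mean CPM (log axis) for 8836 genes (grey) and the members (orange, circles where called and triangles where not); 10 genes beyond 4 in either direction are outside the plot. The members lie below the line at 0 except Tsc22d2.

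Markers of some cell types differed between the same libraries. Of the 7 cardiomyocyte markers, 2 were called higher and 2 lower in replicate 2. The 5 adipocyte markers summed to 37.8 CPM (38 reads) in replicate 2 against 244 CPM (168 reads) in replicate 1, with Lep at 0 in both and the 2 that could be tested called lower in replicate 2. The 6 fibroblast markers summed to 579 CPM in replicate 2 against 764 CPM in replicate 1, with 1 called lower. Endothelial markers (150.4 CPM in replicate 2 against 141 CPM in replicate 1), mural markers (363 CPM in replicate 2 against 341 CPM in replicate 1) and macrophage markers (143 CPM in replicate 2 against 152 CPM in replicate 1) held no called gene. The 7 lymphocyte markers had 7 reads in replicate 2 against 4 in replicate 1, with Cd3e and Cd8a at 0. The part of these markers in the members' ratios was not tested, and in whole tissue fewer cells of a type and less RNA per cell cannot be told apart.

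Around these genes, 6 of 11 receptor chaperones were called lower in replicate 2 and the receptor itself was not called. None of the 11 was called higher. Over all genes tested 2% were called lower, and the chaperones had a median log2 ratio of -0.43 against -0.06 over all genes tested. This list and those below were chosen with earlier results of these data known, so nothing is read from their counts. The test also calls smaller ratios in genes with more reads, such as Hspa8 with 1470 reads in replicate 2 against 1539 in replicate 1. Hspa8, the constitutive HSP70, had 1464 CPM in replicate 2 against 2234 CPM in replicate 1 (log2 ratio -0.61). Hsp90ab1, the constitutive HSP90, had 1106 CPM in replicate 2 against 1733 CPM in replicate 1 (-0.65). Fkbp4, a co-chaperone that opposes FKBP51, had 550 CPM in replicate 2 against 739 CPM in replicate 1 (-0.43). Stip1 (-1.10), which joins HSP70 to HSP90, Dnaja1 (-1.12) and Hsp90aa1 (-1.07) were also lower. Nr3c1, the receptor gene, had 27 reads in replicate 2 against 15 in replicate 1 (log2 ratio 0.29, interval -0.66 to 1.32). H6pd, which supplies the cofactor for reducing the inactive hormone, had 24.9 CPM in replicate 2 against 21.8 CPM in replicate 1, and Hsd11b1, the reductase, had 15.9 CPM in replicate 2 against 17.4 CPM in replicate 1. None of these 3 genes was called, and their median log2 ratio was 0.19.

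Other known targets were called in both directions. Of 23 tested, from 26 listed, 2 were higher and 4 lower in replicate 2, with a median log2 ratio of -0.31. Over all genes tested 1.36% were called higher and 2% lower, with a median log2 ratio of -0.06. Nothing is read from the counts of this list or of those that follow. Pdk4, which shuts pyruvate out of oxidation, had 534 CPM in replicate 2 against 276 CPM in replicate 1 (log2 ratio 0.95), and Ptgds, prostaglandin D synthase, had 551 CPM in replicate 2 against 411 CPM in replicate 1 (0.42). Cebpb, a transcription factor of the acute response, had 201 CPM in replicate 2 against 528 CPM in replicate 1 (-1.39). Trim63, the muscle ubiquitin ligase MuRF1, had 135 CPM in replicate 2 against 247 CPM in replicate 1 (-0.86). Klf15 (-0.72), a regulator of cardiac metabolism, and Sesn1 (-1.04), a stress-induced inhibitor of mTORC1, were lower too. Over the 23 tested, 8 ratios were above 1 and 15 below. Whether the receptor or a hormone had a part in this was not tested. None of 9 receptor coregulators tested was called (median log2 ratio -0.12). Smarca4, the motor of a chromatin remodelling complex, had 34.9 CPM in replicate 2 against 30.5 CPM in replicate 1. Ncoa1, a coactivator, had 27.9 CPM in replicate 2 against 24.7 CPM in replicate 1, and Ncor1, a co-repressor, had 23.9 CPM in replicate 2 against 26.1 CPM in replicate 1. None of 9 paralogs of the members tested was called (median log2 ratio 0.32). The highest were Klf2, at 52.8 CPM in replicate 2 against 61.0 CPM in replicate 1, Irf2bp1, at 35.9 CPM in replicate 2 against 58.1 CPM in replicate 1, and Zbtb7a, at 32.9 CPM in replicate 2 against 43.6 CPM in replicate 1. Among 12 partners of the members tested, 1 was called higher and none lower (median log2 ratio -0.00). This was Tsc1, a subunit of the complex through which REDD1 acts, with 225 CPM in replicate 2 against 155 CPM in replicate 1 (log2 ratio 0.53). Nrbp1, a pseudokinase that binds Tsc22 proteins, had 106 CPM in replicate 2 against 109 CPM in replicate 1. Txnip, a thioredoxin inhibitor that works with REDD1, had 121 CPM in replicate 2 against 75.5 CPM in replicate 1 and did not pass the test.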

How the data were processed

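The 2 heart libraries form 1 group. For each, the authors deposited whole-number read counts per transcript model, not normalized, and an annotation of all models for each library. Per the file headers, coordinates are in mm10 and known models are those of GENCODE M21. TALON stands as the source of new models in the deposited annotation. The aligner and its version: not given in the sources used here. ERCC spike-in reads were left out of totals, and the labelled SIRV spike-ins were not analysed here. The deposited lengths and exon positions were used as given.

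Spliced models were matched between libraries by intron chain, and single-exon ones where they overlapped on the same strand. A gene's count is the sum over all its models. CPM used mouse reads, and log2 ratios a pseudocount of 1 CPM. An exact binomial test (two-sided) was run on genes with 10 reads or more over both libraries, and Fisher's exact test on the top transcript and the top first splice donor where both libraries had 20 reads or more, with Benjamini-Hochberg adjustment over all genes and a threshold of 0.05. Intervals are exact Poisson for CPM, Clopper-Pearson for shares and exact binomial for ratios. With 1 library on each side no edgeR or DESeq2 model could be fitted, and these tools gave only scaling factors. Members and gene lists were chosen with earlier results of these data known. Named are the 10 members, models with at least 5% of a member's reads (at most 4 a gene), and of each further list the 3 highest genes and every called one. Models named below that limit were chosen after their values were seen. Near-identical copies were sought with blastn at 90% identity over 50% of the shorter sequence, and beside Gm26759 the one copy with a read was Gm25692 for Fkbp5 (1 read in replicate 2 against 0 in replicate 1). On simulated reads, the binomial test over 8777 genes called 87% of 100 genes raised 4-fold and 0.0814% of unchanged genes. It called 51.2% of the 80 genes lowered 4-fold that still had 10 reads. The donor test over 3311 genes called 73% of shares moved by 30 percentage points and 0.0643% of unchanged ones. The unchanged ones include genes with only 1 donor, which that test can never call, and this lowers the rate. Simulated reads held counting noise only. Tools were Python 3.11.15, scipy 1.17.1, pandas 2.3.3, R 4.3.3, edgeR 4.0.16, DESeq2 1.42.0 and blastn 2.17.0.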

Additional observations from a re-analysis of the deposited data

Results flagged for a closer look

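New models on the strand opposite a member were in no comparison above, and at 6 members they had more reads than the 3 that a count of 0 allows. At Zbtb16 they had 29 reads in replicate 2 against 25 in replicate 1, more than Zbtb16 itself. Of these, 22 reads in replicate 2 against 14 in replicate 1 lay on a single-exon model over the 3' end of the gene, from 48653633 to 48655808 in replicate 2 and from 48653631 to 48655673 in replicate 1 (chromosome 9). At Klf9 they had 13 reads in replicate 2 against 14 in replicate 1, of which 12 in replicate 2 against 13 in replicate 1 lay on a model whose upper end, 23142259 on chromosome 19, is the last base of the first exon of Klf9-201 in both libraries. At Tsc22d2 they had 10 reads in replicate 2 against 6 in replicate 1, and at Sgk1 8 reads in replicate 2 against 4 in replicate 1. At Fkbp5 they had 5 reads in replicate 2 against 6 in replicate 1. At Tsc22d3 they had 6 reads in replicate 2 against 4 in replicate 1. There 5 reads of replicate 2 lay on a model with both ends of the shared distal exon, 140598128 and 140598558, and the 4 reads of replicate 1 on a model that ends at the same base 140598558. Whether the counting used strand is not given in the sources used here, so these reads are uncertain.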

How the results depend on the processing

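No paired analysis was possible because there is 1 group, so replicate numbers pair nothing. Of 73 member ratios under an alternative, 69 kept their direction and their side of the threshold, 4 lost the call and none turned round. A changed pseudocount could alter neither direction nor call, and a changed minimum of reads could not alter direction. Members too low to test under an alternative, such as Zbtb16 without incomplete and genomic models, are not among the 73. The 4 lost calls were all Klf9, whose adjusted binomial p ranged from 0.0190 to 0.263 over its alternatives. Its log2 ratio, -0.64, was -0.58 with either other scaling, -1.28 with known models only and -1.37 without incomplete and genomic models, where fewer reads were counted. That of Tsc22d3, -1.11, was -1.84 with known models only. Members called numbered 2 with known models only and 2 without incomplete and genomic models, where Zbtb16 had under 10 reads, and Tsc22d3 and Irf2bp2 were called under every alternative run. The summed level of the members, 889 CPM, was 499.7 CPM with known models only and 613 CPM without incomplete and genomic models. Top transcript calls numbered 2 without incomplete and genomic models, and donor calls 12 with 5' ends joined within 100 bases, Tsc22d3 being called in both, with adjusted p from 0.00020 to 0.0373 over all share alternatives. Tsc22d1-201 took 82.9% of reads with incomplete models added. Leaving out each replicate gave a summed level of 706 to 1071 CPM, a Tsc22d1-201 share of 96.1 to 97.0%, a Tsc22d3-201 start share of 36.9 to 64.9%, a distal share of 29.2 to 55.3% and a median incomplete and genomic share of 19.2 to 19.9%. The cause of these changes was not tested. Depth limits Fkbp5, Ddit4, Zbtb16 and Tsc22d2 most.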
